A study of Rattus norvegicus with 8 samples.

Results

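The genes described here are 32 genes of glycolysis and of the response to low oxygen, out of 22459 genes and accessions tested on the arrays. They were taken by symbol, through the RefSeq accession of each probe. All 32 were found, on 43 probes, and all 32 were tested. They comprise 16 glycolytic enzymes, 2 bifunctional regulators of the pathway, 4 transporters of glucose or lactate, 2 pyruvate dehydrogenase kinases, 7 genes known to be induced by hypoxia, and Hif1a.

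Glycolysis splits glucose into pyruvate and gives ATP without oxygen, and lactate dehydrogenase turns pyruvate into lactate. When oxygen is low, the protein HIF-1α escapes prolyl hydroxylation, pairs with ARNT and binds DNA at sites with the core ACGTG or GCGTG, raising transcription of glucose transporters, most glycolytic enzymes, pyruvate dehydrogenase kinases and genes such as Vegfa, Bnip3 and Adm. In brain, neurons depend strongly on mitochondrial respiration, while astrocytes are known for high glycolysis and release of lactate.

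Primary neurons from cortex and hippocampus of embryonic day 18 Sprague Dawley rats were kept for 7 days in vitro and then exposed to 1 uM CAT-SKL, to 1 uM ADDL, or to both in sequence, for 24 hours per agent. CAT-SKL is the antioxidant enzyme catalase carrying a peroxisome-targeting signal, and ADDL are soluble oligomers of amyloid-β. The 4 treatment groups, CAT-SKL, ADDL, CAT-SKL+ADDL and ADDL+CAT-SKL, had 2 arrays each, and no genetic change was introduced in any of them. The labels describe both orders of treatment but do not say which order each combined name stands for, so CAT-SKL+ADDL and ADDL+CAT-SKL are used only as names. On each of the 8 arrays, treated RNA in Cy5 was hybridised with RNA of vehicle-treated neurons in Cy3, so a log2 ratio above 0 means more in the treated cells. No dye swap was made, so a gene's dye bias and its response to treatment cannot be told apart in a comparison with vehicle. Whether the vehicle RNA came from a single pool is not given in the labels, so it is not known how much of the vehicle's own spread the test holds. Comparisons between treatments cancel a constant dye bias. With 24 hours per agent, treatment with both in sequence lasted longer than treatment with 1 agent. When a combined treatment is compared with a single one, the added agent and the longer exposure cannot be told apart.

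The median signal was 87.5 to 127.5 in Cy5 and 104 to 111.5 in Cy3, over backgrounds of 23.5 to 29, and 0 spots were saturated. Replicates are described in the design text as biological. For CAT-SKL+ADDL, however, the difference between both arrays did not recur between the first and second spot of a probe (r = 0.00719 over probes, against 0.291 to 0.709 for the 27 other pairs of arrays). Those arrays differed by no more than spot noise and entered as their mean, 1 sample, so the fit had 7 samples. Of the listed neuron markers 9 of 10 were tested, and all 9 were above background on all arrays. Astrocyte markers (9 of 10 tested, all above background in vehicle) did not stay level: their median log2 ratio was 1.23 and 0.27 on the CAT-SKL arrays, 0.57 and 1.19 on the ADDL arrays, 1.18 and 1.13 on the CAT-SKL+ADDL arrays, and 0.33 and -0.06 on the ADDL+CAT-SKL arrays. Their summed signal was 7391 to 8452 in Cy3 and 6348 to 25752 in Cy5. Oligodendrocyte lineage markers (7 of 7 tested) had medians of 0.82 and 0.34, 0.41 and 0.69, 0.78 and 0.80, and 0.13 and -0.09 in the same order. The 3 tested markers of proliferating cells were above 0 on all 8 arrays, with medians of 0.16 to 0.60, and the medians of the 5 tested microglia markers ranged from -0.13 to 0.41. Neuron markers had medians of -0.12 to 0.05, and on each CAT-SKL+ADDL array 1 of 9 was above 0. Single neuron markers ranged more widely, from -0.72 (Dcx on CAT-SKL 1) to 0.59 (Map2 on ADDL 1). Dcx was also -0.41 on both CAT-SKL+ADDL arrays. Fewer cells of a type and less RNA per cell cannot be told apart in such bulk samples.

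Because HIF-1 acts through short DNA cores, the 250 bases before the transcription start were read for 29 of the 32 genes from RefSeq (rat assembly GRCr8). The cores ACGTG and GCGTG were searched on both strands, where they read CACGT and CACGC on the opposite strand. A CACGTG is therefore counted on both strands. With 1 start per gene, the first that RefSeq's table lists, at least 1 match was present before 18 of the 29 genes (62.1%), 9 of 15 enzymes and 3 of 6 hypoxia-induced genes, against 37.9% of 27457 promoters of the same length. Over all listed starts it was 20 of 29 (69%), 11 of 15 and 3 of 6, against 39.6% of genes, with Hk1 and Aldoa added. The promoters of the members were richer in G and C (median 63.6% against 52%), which was not taken into account. A match describes letters in the window and not a bound site. Shown are the 3 promoters with 4 matches and that of Vegfa, which had none, each 5′ to 3′ on the gene's strand with matches in capitals.

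Bnip3 (chr1:203154963-203155212, minus strand): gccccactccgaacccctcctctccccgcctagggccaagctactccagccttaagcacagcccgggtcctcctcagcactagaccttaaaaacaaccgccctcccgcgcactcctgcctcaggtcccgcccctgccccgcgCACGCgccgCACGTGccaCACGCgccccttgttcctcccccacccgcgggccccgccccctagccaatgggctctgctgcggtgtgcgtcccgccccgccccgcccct
Ldha (chr1:106507842-106508091, plus strand): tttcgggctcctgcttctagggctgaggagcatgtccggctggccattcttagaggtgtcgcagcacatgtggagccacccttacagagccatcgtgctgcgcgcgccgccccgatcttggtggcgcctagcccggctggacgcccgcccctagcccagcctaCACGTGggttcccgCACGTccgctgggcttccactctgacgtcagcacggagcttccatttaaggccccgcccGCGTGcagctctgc
Slc2a1 (chr5:138002272-138002521, plus strand): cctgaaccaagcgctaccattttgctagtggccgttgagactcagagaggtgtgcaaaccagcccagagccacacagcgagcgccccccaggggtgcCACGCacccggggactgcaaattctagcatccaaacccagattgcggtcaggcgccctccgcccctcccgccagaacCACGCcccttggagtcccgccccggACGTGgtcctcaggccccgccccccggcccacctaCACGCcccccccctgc
Vegfa (chr9:22452604-22452853, plus strand, the first of 2 starts listed): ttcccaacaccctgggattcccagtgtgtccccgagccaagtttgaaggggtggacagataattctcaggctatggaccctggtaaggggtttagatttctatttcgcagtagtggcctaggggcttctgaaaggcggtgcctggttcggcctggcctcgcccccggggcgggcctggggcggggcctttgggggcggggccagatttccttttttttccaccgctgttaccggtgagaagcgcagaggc

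Bnip3 and Ldha lay above vehicle on all 8 arrays and Slc2a1 below vehicle on all 8. Pdk3, which had the most matches (5), lay above vehicle on 7. P4ha1, with 2 matches, lay above vehicle on all 8 arrays, and Eno2, with 1, below on all 8. Hk1, with a match only when all listed starts were read, lay above on all 8. Of the genes without a match, Adm and Pfkfb2 also lay above on all 8, and Tpi1 below on all 8. A link between matches and direction was not tested.

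Of the 32 genes, 1 passed the threshold of 0.05 on the Benjamini-Hochberg adjusted p in limma in any of 8 comparisons: Vegfa, an angiogenic growth factor, fell after CAT-SKL. Among all genes tested, 2.62% passed after CAT-SKL, 0% after ADDL, 0% after CAT-SKL+ADDL and 0.454% after ADDL+CAT-SKL. At an unadjusted p below 0.05 in limma, 13 members (40.6%) stood out after CAT-SKL against 21.2% of all genes, 10 (31.2%) after ADDL against 19.0%, 7 (21.9%) after CAT-SKL+ADDL against 11.3%, and 12 (37.5%) after ADDL+CAT-SKL against 17.6%. The share was thus higher among the members in all 4 comparisons, and the members' SD on an array was above that of all genes on 7 of 8 arrays (0.13 to 0.23 against 0.14 to 0.20). The members were chosen with earlier results of these data known, so shares over them are a description and not a test. The members are also brighter than most genes (median percentile of signal 82.1), and the part of brightness in these shares was not tested. These comparisons share the same kind of control, vehicle RNA. On single arrays the 32 genes ranged from -0.51 to 0.77 on the log2 scale.

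**Figure D1:**
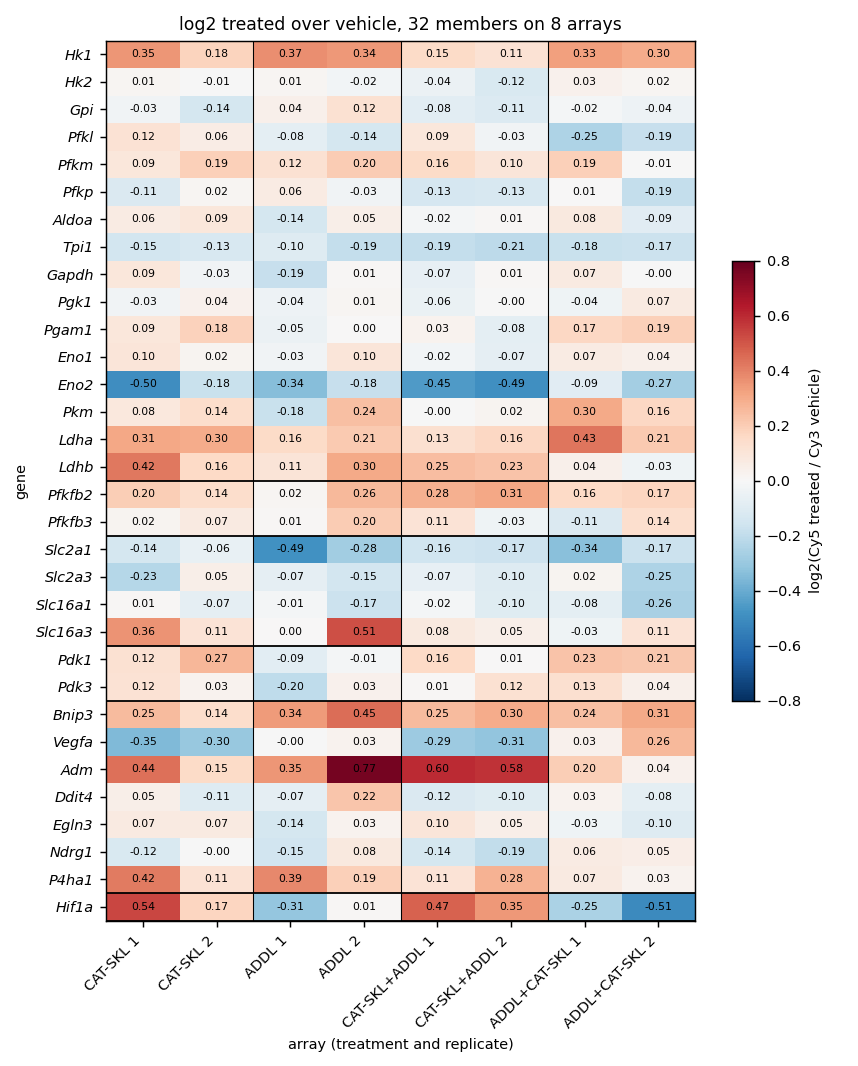
Log2 ratio of treated (Cy5) over vehicle (Cy3) RNA for the 32 genes (rows, grouped by role) on the 8 arrays (columns, treatment and replicate), with red above 0 and blue below. Most cells are pale; Hk1, Ldha, Pfkfb2, Bnip3, Adm and P4ha1 are above 0 in every column, and Tpi1, Eno2 and Slc2a1 below 0 in every column.

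Some genes lay on the same side of vehicle throughout. Hk1, Ldha, Pfkfb2, Bnip3, Adm and P4ha1 were above 0 on all 8 arrays (6 of 32, 18.8%, against 7.47% of all genes), and Tpi1, Eno2 and Slc2a1 were below 0 on all 8 (3 of 32, 9.38%, against 7.99% of all genes). With median centring of the arrays instead of loess, Tpi1 and Slc2a1 lay above 0 after CAT-SKL and after CAT-SKL+ADDL, and with the deposited log ratios P4ha1 lay below 0 after ADDL+CAT-SKL. The other 6 genes kept their side in every treatment under the 3 scalings tried.

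Among the enzymes, Hk1, the hexokinase that commits glucose to the pathway in brain, gave 0.35 and 0.18 after CAT-SKL, 0.37 and 0.34 after ADDL, 0.15 and 0.11 after CAT-SKL+ADDL, and 0.33 and 0.30 after ADDL+CAT-SKL. Its mean was highest after ADDL, at 0.36 ± 0.06 (SE; limma adjusted p = 0.0714), and none of its 4 comparisons with vehicle passed. The arrays of CAT-SKL+ADDL were the lowest of the 8. Their mean was 0.22 lower than that of ADDL on the log2 scale (-0.22 ± 0.10, SE; limma adjusted p = 1.00), a difference that was 0.03 with the arrays centred on their median.

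Ldha, the lactate dehydrogenase subunit that favours lactate formation, gave 0.31 and 0.30 after CAT-SKL, 0.16 and 0.21 after ADDL, 0.13 and 0.16 after CAT-SKL+ADDL, and 0.43 and 0.21 after ADDL+CAT-SKL. All 8 values were above 0, and the CAT-SKL arrays did not overlap those of ADDL. After CAT-SKL its mean of 0.30 ± 0.06 (SE) came just short of the threshold (limma adjusted p = 0.0514). Ldhb, the subunit that favours lactate use, averaged 0.29 ± 0.19 (SD, n = 2) after CAT-SKL and 0.00 ± 0.05 (SD, n = 2) after ADDL+CAT-SKL.

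Eno2, the neuronal enolase, had the lowest mean of the enzymes in every treatment except ADDL+CAT-SKL. It gave -0.50 and -0.18 after CAT-SKL, -0.34 and -0.18 after ADDL, -0.45 and -0.49 after CAT-SKL+ADDL, and -0.09 and -0.27 after ADDL+CAT-SKL. The arrays of every treatment except CAT-SKL+ADDL spread widely and overlapped each other, and no comparison with vehicle passed (smallest limma adjusted p 0.0765, after CAT-SKL). Eno1, the enolase of most tissues, stayed between -0.07 and 0.10.

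Gapdh, often used as a reference gene, gave 0.09 and -0.03 after CAT-SKL, -0.19 and 0.01 after ADDL, -0.07 and 0.01 after CAT-SKL+ADDL, and 0.07 and -0.00 after ADDL+CAT-SKL. These values are from the probe that represents it, which has 1 spot, and there the replicates lay on both sides of 0 in every treatment. Its other probes, with 2 spots each, lay below 0 on both arrays of ADDL, CAT-SKL+ADDL and ADDL+CAT-SKL, from -0.20 to -0.03. After CAT-SKL these probes gave 0.04 and -0.11, and 0.12 and 0.11. The mean after CAT-SKL+ADDL on the probe that represents Gapdh was -0.03, but 0.26 with median centring and 0.03 with the deposited log ratios. The direction there thus depends on the scaling.

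The phosphofructokinases, which catalyse the main regulated step, did not move as 1 group. Pfkl, the liver-type subunit, gave 0.12 and 0.06 after CAT-SKL, -0.08 and -0.14 after ADDL, 0.09 and -0.03 after CAT-SKL+ADDL, and -0.25 and -0.19 after ADDL+CAT-SKL, where its limma adjusted p was 0.103. Pfkm, the muscle-type subunit, lay above 0 on 7 arrays, and Pfkp, the platelet-type subunit, on 3. Of the remaining enzymes, Hk2, Gpi, Aldoa, Pgk1 and Pgam1 ranged from -0.14 to 0.19 over all arrays. Tpi1, triose phosphate isomerase, ranged from -0.21 to -0.10. Its second probe ranged from -0.37 to 0.01 and lay above 0 on the CAT-SKL 2 array. Pkm, pyruvate kinase, gave 0.08 and 0.14 after CAT-SKL, -0.18 and 0.24 after ADDL, -0.00 and 0.02 after CAT-SKL+ADDL, and 0.30 and 0.16 after ADDL+CAT-SKL. Its second probe gave 0.09 and 0.25, -0.35 and 0.13, -0.07 and -0.07, and 0.23 and -0.17 in the same order. Both probes put the ADDL arrays on opposite sides of 0, and they disagreed in sign on the last ADDL+CAT-SKL array.

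Pfkfb2 and Pfkfb3 make and break fructose 2,6-bisphosphate, the activator of phosphofructokinase. Pfkfb2 gave 0.20 and 0.14 after CAT-SKL, 0.02 and 0.26 after ADDL, 0.28 and 0.31 after CAT-SKL+ADDL, and 0.16 and 0.17 after ADDL+CAT-SKL. Its second probe did not show this: it gave -0.16 and 0.12, -0.17 and -0.05, -0.04 and -0.05, and 0.19 and 0.08 in the same order. Pfkfb3 gave 0.02 and 0.07 after CAT-SKL, 0.01 and 0.20 after ADDL, 0.11 and -0.03 after CAT-SKL+ADDL, and -0.11 and 0.14 after ADDL+CAT-SKL, with replicates on both sides of 0 in the combined treatments.

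Among the transporters, Slc2a1, the glucose transporter of endothelium and glia, gave -0.14 and -0.06 after CAT-SKL, -0.49 and -0.28 after ADDL, -0.16 and -0.17 after CAT-SKL+ADDL, and -0.34 and -0.17 after ADDL+CAT-SKL. Both ADDL arrays lay below those of CAT-SKL and of CAT-SKL+ADDL, and the mean after ADDL was -0.38 ± 0.07 (SE; limma adjusted p = 0.0723). CAT-SKL minus ADDL was 0.28, with a 95% interval of 0.06 to 0.51, and did not pass (limma adjusted p = 0.541). Slc2a3, the neuronal glucose transporter, gave -0.23 and 0.05 after CAT-SKL, -0.07 and -0.15 after ADDL, -0.07 and -0.10 after CAT-SKL+ADDL, and 0.02 and -0.25 after ADDL+CAT-SKL.

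Slc16a3, a lactate exporter of glycolytic cells, gave 0.36 and 0.11 after CAT-SKL, 0.00 and 0.51 after ADDL, 0.08 and 0.05 after CAT-SKL+ADDL, and -0.03 and 0.11 after ADDL+CAT-SKL. The ADDL arrays differed from each other by more than any 2 treatment means did. Slc16a1, a monocarboxylate transporter found in many cells, lay between -0.26 and 0.01.

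The pyruvate dehydrogenase kinases keep pyruvate out of the mitochondrial cycle. Pdk1 gave 0.12 and 0.27 after CAT-SKL, -0.09 and -0.01 after ADDL, 0.16 and 0.01 after CAT-SKL+ADDL, and 0.23 and 0.21 after ADDL+CAT-SKL. The ADDL arrays were the only ones below 0. ADDL+CAT-SKL minus ADDL was 0.27 ± 0.08 (SE), and CAT-SKL minus ADDL was 0.24 ± 0.08 (SE), and neither passed (limma adjusted p = 0.573 and 0.541). Pdk3 gave 0.12 and 0.03, -0.20 and 0.03, 0.01 and 0.12, and 0.13 and 0.04 in the order CAT-SKL, ADDL, CAT-SKL+ADDL, ADDL+CAT-SKL.

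**Figure D2:**
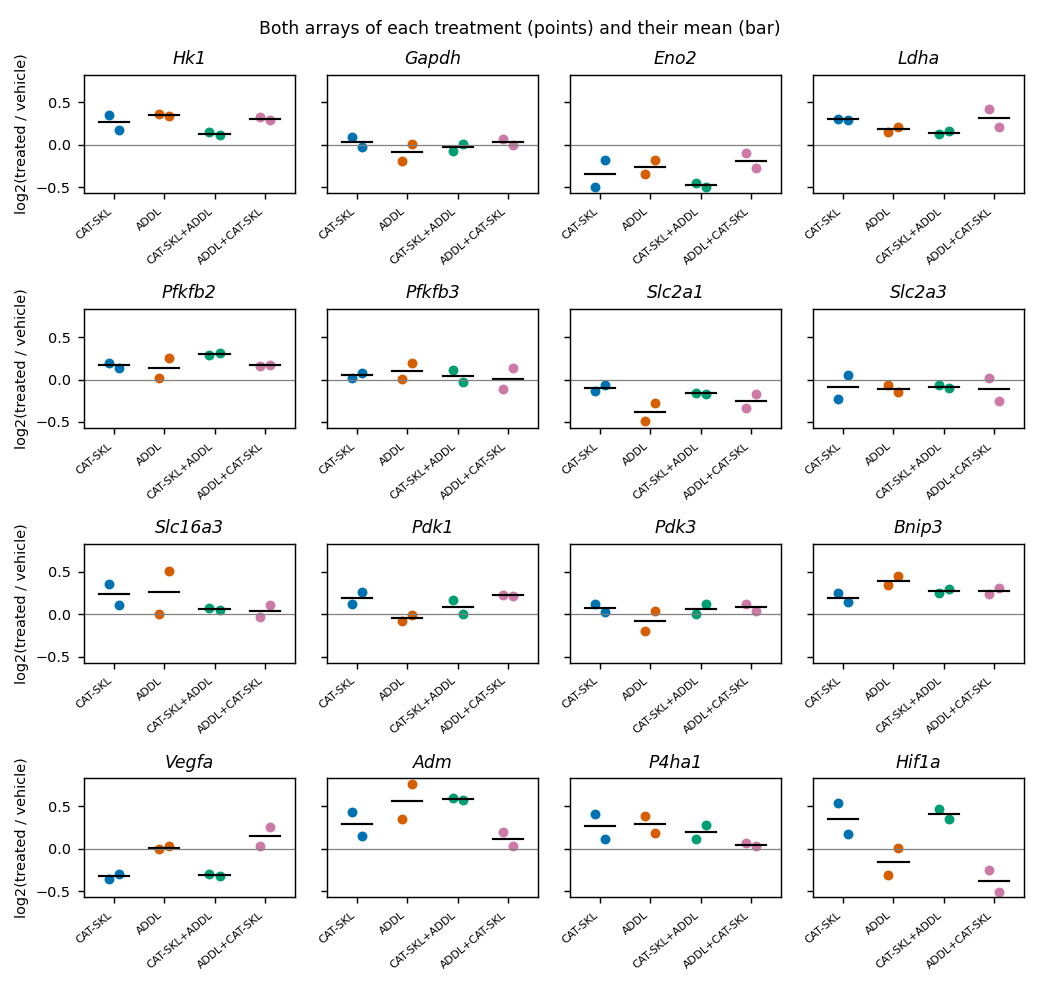
Log2 ratio of treated over vehicle RNA (vertical axis) for 16 members. Points are both arrays of each treatment and the bar is their mean. Shown are the 3 of each class with the largest absolute mean log2 ratio, with Vegfa, Hif1a and Gapdh. Hif1a and Vegfa change sides of 0 between treatments, Bnip3 and Hk1 do not, and the Adm points range from 0.04 to 0.77.

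The hypoxia-induced genes did not share a direction. Bnip3, a mitochondrial protein of mitophagy and cell death, gave 0.25 and 0.14 after CAT-SKL, 0.34 and 0.45 after ADDL, 0.25 and 0.30 after CAT-SKL+ADDL, and 0.24 and 0.31 after ADDL+CAT-SKL. The ADDL arrays were the highest 2 of the 8. The mean after ADDL was 0.39 ± 0.06 (SE), 1.31-fold, and missed the threshold (limma adjusted p = 0.0714, equal to the smallest of any gene in that comparison).

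Adm, the vasodilator peptide adrenomedullin, gave 0.44 and 0.15 after CAT-SKL, 0.35 and 0.77 after ADDL, 0.60 and 0.58 after CAT-SKL+ADDL, and 0.20 and 0.04 after ADDL+CAT-SKL. P4ha1, a collagen prolyl hydroxylase subunit, gave 0.42 and 0.11, 0.39 and 0.19, 0.11 and 0.28, and 0.07 and 0.03 in the same order. Both were lowest on the ADDL+CAT-SKL 2 array, where the median of the astrocyte markers was also lowest, at -0.06. Adm was highest on ADDL 2, where that median was 1.19. On CAT-SKL 1, where the median was highest at 1.23, Adm was 0.44 and P4ha1 0.42. P4ha1 was 0.11 on CAT-SKL+ADDL 1, where the median was 1.18, but 0.39 on ADDL 1, where it was 0.57. The part of the astrocyte markers in the values of Adm and P4ha1 was not tested. ADDL+CAT-SKL minus ADDL was -0.44 ± 0.15 (SE) for Adm and did not pass (limma adjusted p = 0.573). Adm was also dim: its raw signal in vehicle was 100 to 112. Pfkfb3 (52 to 73) and Hk2 (60 to 82) were dimmer in vehicle. Slc2a3 (94 to 110), Egln3 (99 to 126.5) and Pfkfb2 (100.5 to 126.75) were about as dim.

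Vegfa was the only member called. It gave -0.35 and -0.30 after CAT-SKL, -0.00 and 0.03 after ADDL, -0.29 and -0.31 after CAT-SKL+ADDL, and 0.03 and 0.26 after ADDL+CAT-SKL. The arrays of CAT-SKL and CAT-SKL+ADDL lay below those of the other treatments with no overlap. After CAT-SKL it fell by 0.33 ± 0.07 (SE) on the log2 scale, 0.798-fold, with a limma adjusted p of 0.0465. That is 1 of 32 members, or 3.12%, beside the 2.62% of all genes. After CAT-SKL+ADDL the same size of difference (-0.30 ± 0.09, SE), resting on 1 sample, had a limma adjusted p of 0.264.

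The call sits at the threshold. It was lost without background subtraction (adjusted p = 0.0685), with the deposited log ratios (0.192), without the filter on dim probes (0.0551), with median centring (0.255) and when any 1 array of CAT-SKL, ADDL or ADDL+CAT-SKL was left out, while the log2 ratio stayed between -0.35 and -0.30 over the arrays left out and was -0.18 with median centring.

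The 4 probes of Vegfa differed in size. In CAT-SKL and in CAT-SKL+ADDL all 8 values of each treatment were below 0, from -0.88 to -0.06 and from -0.74 to -0.13. In ADDL 4 of 8 were below 0 and in ADDL+CAT-SKL 5 of 8. With each probe fitted as a feature of its own, a step added after the data were seen, the 4 probes gave -0.33, -0.68, -0.42 and -0.10 after CAT-SKL, with limma adjusted p of 0.0491, 0.0529, 0.140 and 0.528.

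**Figure D3:**
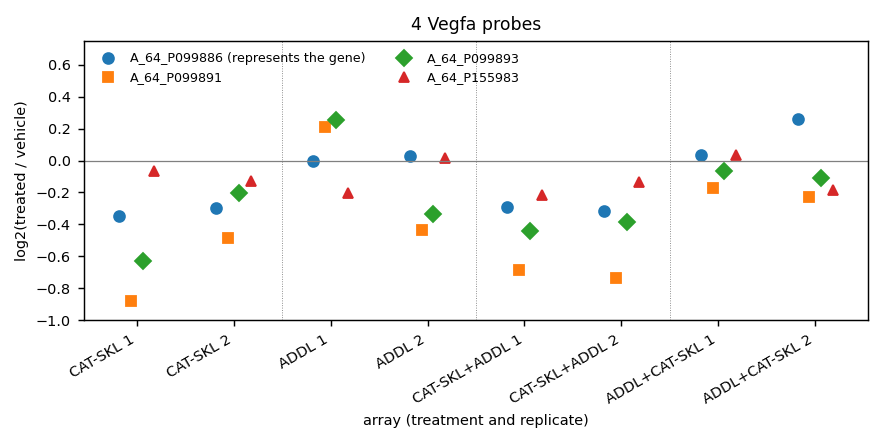
Log2 ratio of treated over vehicle RNA for the 4 Vegfa probes (symbols) on the 8 arrays; the circle is the probe that represents the gene. All 4 lie below 0 on the CAT-SKL and CAT-SKL+ADDL arrays, and the probes part on the ADDL arrays.

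On the probes that represent them, the other hypoxia-induced genes lay near vehicle. Egln3, the oxygen-sensing prolyl hydroxylase, ranged from -0.14 to 0.10, and Ndrg1, a stress-responsive gene, from -0.19 to 0.08. Ddit4, an inhibitor of mTORC1 signalling, gave 0.05 and -0.11 after CAT-SKL, -0.07 and 0.22 after ADDL, -0.12 and -0.10 after CAT-SKL+ADDL, and 0.03 and -0.08 after ADDL+CAT-SKL. Its second probe lay lower, at -0.28 and -0.22, -0.39 and 0.04, -0.31 and -0.31, and -0.22 and -0.23 in the same order.

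Hif1a encodes the oxygen-regulated subunit of HIF-1, whose activity is set mainly at the protein level, which was not measured. Its 1 probe gave 0.54 and 0.17 after CAT-SKL, -0.31 and 0.01 after ADDL, 0.47 and 0.35 after CAT-SKL+ADDL, and -0.25 and -0.51 after ADDL+CAT-SKL. Both arrays were above 0 in CAT-SKL and CAT-SKL+ADDL, and all arrays of those groups lay above all arrays of ADDL and ADDL+CAT-SKL. The difference between the combined treatments, ADDL+CAT-SKL minus CAT-SKL+ADDL, was -0.79 ± 0.19 (SE), with a 95% interval of -1.22 to -0.36, and it did not pass over all genes (limma adjusted p = 0.857). CAT-SKL minus ADDL was 0.51 ± 0.15 (SE; limma adjusted p = 0.541). The combined treatments also differed in the median of the astrocyte markers. It was 1.18 and 1.13 on the CAT-SKL+ADDL arrays, and 0.33 and -0.06 on the ADDL+CAT-SKL arrays. On ADDL 2 that median was 1.19 and Hif1a was 0.01. The part of cell composition in the values of Hif1a was not tested.

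Between treatments no member passed, and 0% of all genes did in each of the 4 comparisons. At an unadjusted p below 0.05 in limma, 6 members (18.8%) stood out in CAT-SKL minus ADDL against 8.70% of all genes, 2 (6.25%) in CAT-SKL+ADDL minus ADDL against 3.90%, 3 (9.38%) in ADDL+CAT-SKL minus ADDL against 8.39%, and 4 (12.5%) in ADDL+CAT-SKL minus CAT-SKL+ADDL against 5.64%. Vegfa and Hif1a had the smallest p of the members in 3 of these 4, and in each Hif1a and Vegfa differed in opposite directions. ADDL+CAT-SKL minus CAT-SKL+ADDL was 0.45 ± 0.11 (SE) for Vegfa, with a 95% interval of 0.19 to 0.71. Comparisons with ADDL share its 2 arrays.

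Set side by side, enzymes and hypoxia-induced genes had close medians. The median of the 16 enzymes minus that of the 7 hypoxia-induced genes was 0.01 and -0.02 on the CAT-SKL arrays, -0.03 and -0.16 on the ADDL arrays, -0.12 and -0.06 on the CAT-SKL+ADDL arrays, and -0.01 and -0.04 on the ADDL+CAT-SKL arrays. The enzymes were lower on 7 of 8 arrays, by at most 0.16. The class medians ranged from -0.04 to 0.08 for enzymes and from -0.00 to 0.19 for hypoxia-induced genes, with the median of all genes within 0.01 of 0 on every array. With median centring the difference was above 0 in 3 treatments (0.10 after CAT-SKL, 0.13 after CAT-SKL+ADDL and 0.03 after ADDL+CAT-SKL), so its direction depends on the scaling. With the deposited log ratios the difference was 0.021 after ADDL+CAT-SKL. The enzymes are bright, at a median percentile of 94.3 of signal against 75.7 for the hypoxia-induced genes. Loess, unlike median centring, removes a trend with brightness. The part of brightness in the difference between the classes was not tested.

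**Figure D4:**
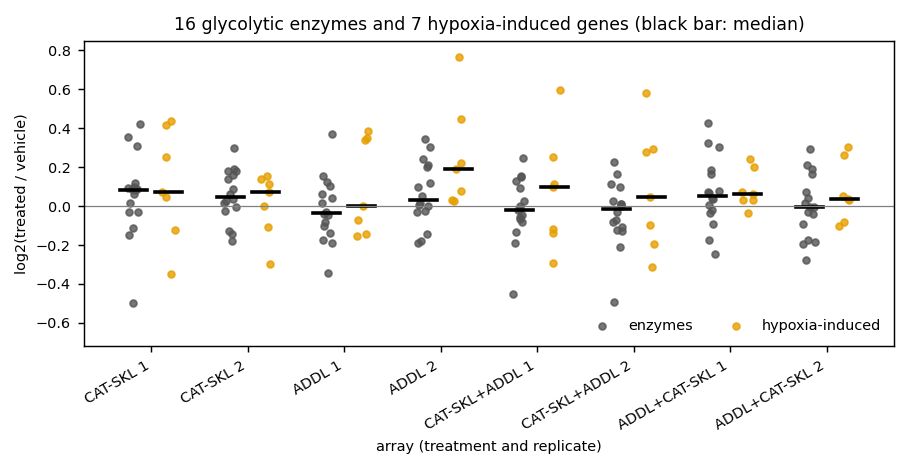
Log2 ratio of treated over vehicle RNA for each of the 16 enzymes (grey) and 7 hypoxia-induced genes (orange) on the 8 arrays, with the class median as a black bar. The bars of the classes lie within 0.16 of each other on every array, and the points overlap.

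By comparison, 12 of 16 enzymes and 4 of 7 hypoxia-induced genes had a mean above 0 after CAT-SKL, 8 and 5 after ADDL, 6 and 4 after CAT-SKL+ADDL, and 10 and 5 after ADDL+CAT-SKL. Over all 32 members the median was 0.07, 0.00, 0.00 and 0.03 in that order, and that of all genes tested lay within 0.01 of 0.

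Beyond the 32, a list of other genes of glucose metabolism had 41 of 45 genes tested, of which 1 rose and 1 fell after CAT-SKL and none passed in another comparison. Txnip, an inhibitor of thioredoxin and of glucose uptake, gave 0.60 and 0.33 after CAT-SKL and rose by 0.46 ± 0.08 (SE; limma adjusted p = 0.0385). Pck2, the mitochondrial form of the enzyme that makes phosphoenolpyruvate, gave -0.23 and -0.41 and fell by 0.32 ± 0.06 (SE; limma adjusted p = 0.0420). Both calls were lost when any 1 array of CAT-SKL, ADDL or ADDL+CAT-SKL was left out, except that Txnip kept its call without CAT-SKL 2, and Txnip was 1.12 with the deposited log ratios. Pdp1, a phosphatase that activates pyruvate dehydrogenase, gave 0.24 and 0.32 after ADDL+CAT-SKL (limma adjusted p = 0.0779).

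Of a list of other HIF pathway genes 28 of 35 were tested, and none passed in any comparison. Hmox1, the heme oxygenase induced by oxidative stress as well as by hypoxia, gave 0.68 and 0.27 after CAT-SKL, 0.40 and 0.75 after ADDL, 0.53 and 0.54 after CAT-SKL+ADDL, and 0.57 and 0.45 after ADDL+CAT-SKL. All 8 values were above 0, with a smallest limma adjusted p of 0.0594 after CAT-SKL. Bnip3l, the relative of Bnip3, gave 0.30 and 0.33 after ADDL (limma adjusted p = 0.0718), and Nampt, an enzyme of NAD synthesis, gave -0.35 and -0.31 (limma adjusted p = 0.0727).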

How the data were processed

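The data are 8 Agilent arrays with 2 colours each. The deposited scanner files hold spot intensity per channel with local background intensity, and a log10 ratio of Cy5 over Cy3 made with Agilent Feature Extraction 11.5, per the submitters' processing notes and the file headers. The same log10 ratios stand in the deposited series table, with a median of 0 on every array. Flags are 0 or 1, per the file headers.

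From the median intensities, background was corrected with normexp (offset 50) and arrays were normalised by loess in limma 3.58.1 (R 4.3.3), with control spots at weight 0. Outlier spots (902 to 1262 per array) were dropped, and the mean over a probe's spots was taken. Probes above background, in Cy5 or Cy3, on 2 or more arrays were tested, and the brightest tested probe represented a gene. Accessions were matched to symbols through RefSeq (17998 of 30367 probes). All 7 samples entered 1 limma fit (lmFit, eBayes) with 3 residual degrees of freedom, and p was adjusted over 22459 genes and accessions. The script was checked on simulated data. The number of arrays limits the precision.

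The members, gene lists and the averaging of the CAT-SKL+ADDL arrays were chosen with earlier results of these data known. All 32 members are named. Array values are given in full for those that passed, the 3 of each class with the largest absolute mean log2 ratio, Hif1a and Gapdh. They are also given for members whose probes disagreed in sign by over 0.3, and for Pfkl, added after its values were seen. Other pathway genes are named where they passed or had one of the 3 smallest p of their list. Alternatives were 8 separate samples, median centring, no background subtraction, the deposited log ratios, no filter on dim probes, the mean of a gene's probes, the replicate number as a block, and leaving out each array.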

Additional observations from a re-analysis of the deposited data

Results flagged for a closer look

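For 2 pairs of treatments that no test compared, the arrays of one group all lay above vehicle and those of the other all below. CAT-SKL minus ADDL+CAT-SKL was 0.73 for Hif1a (means 0.35 and -0.38), -0.47 for Vegfa (-0.33 and 0.15), 0.31 for Pfkl (0.09 and -0.22), 0.14 for Egln3 (0.07 and -0.07) and -0.12 for Ndrg1 (-0.06 and 0.06) on the log2 scale. CAT-SKL minus CAT-SKL+ADDL was 0.11 for Eno1 (0.06 and -0.05). These differences were not tested, and each group had 2 arrays. The share of all genes that meet this rule was not counted. Both arrays lay above 0 for 32.4% of all genes after CAT-SKL, 36.2% after CAT-SKL+ADDL and 30.1% after ADDL+CAT-SKL. They lay below 0 for 34%, 38.8% and 31.6% in that order. Ndrg1 was only -0.0006 on the CAT-SKL 2 array. With median centring Ndrg1 was 0.056 after CAT-SKL and Eno1 0.23 after CAT-SKL+ADDL, so their sides depend on the scaling.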

How the results depend on the processing

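The number of arrays limits every result here, and the call of Vegfa after CAT-SKL depended on most choices. The count of members called was 0 after CAT-SKL, in place of 1, without background subtraction, with the deposited log ratios, without the filter on dim probes, and with the replicate block (smallest adjusted p 0.0727), which changed no other count. Of all genes, 1.83%, 0%, 1.02% and 0.0267% passed after CAT-SKL in these settings, in that order. The replicate numbers did not pair the arrays: deviations of same-numbered arrays from their group means correlated at -0.20 to 0.08. Leaving out 1 array gave counts of 0 to 1 after CAT-SKL and of 0 to 3 after ADDL. There 2 were called without CAT-SKL 1 and 3 without CAT-SKL 2. The share of all genes was not set beside these counts. With 8 separate samples 5 of 32 members passed after CAT-SKL (Hk1, Eno2, Ldha, Ldhb, Vegfa), beside 8.1% of all genes. After ADDL 4 passed (Hk1, Slc2a1, Bnip3, Adm), beside 4.34%. After CAT-SKL+ADDL 7 passed (Tpi1, Eno2, Pfkfb2, Bnip3, Vegfa, Adm, Hif1a), beside 10.3%. After ADDL+CAT-SKL 3 passed (Hk1, Ldha, Bnip3), beside 3.94%. This setting counts the 2 CAT-SKL+ADDL arrays as independent. With median centring 7 of 32 members passed after CAT-SKL (Hk1, Pgam1, Ldha, Ldhb, Bnip3, P4ha1, Hif1a), beside 8.1% of all genes. After ADDL 3 passed (Slc2a1, Bnip3, Adm), beside 1.91%. After CAT-SKL+ADDL 1 passed (Adm), beside 1.45%. After ADDL+CAT-SKL 3 passed (Hk1, Ldha, Bnip3), beside 1.67%. With that centring the median of the members' fitted values after CAT-SKL was 0.22 in place of 0.07. The counts between treatments were 0 under all 15 alternatives. Enzymes minus hypoxia-induced genes was 0.10 after CAT-SKL, 0.13 after CAT-SKL+ADDL and 0.03 after ADDL+CAT-SKL with median centring, -0.048 after CAT-SKL without background subtraction, and -0.094 after CAT-SKL and 0.021 after ADDL+CAT-SKL with the deposited log ratios. Leaving out 1 array gave -0.024 to 0.011 after CAT-SKL. The calls of Txnip and Pck2 after CAT-SKL were also lost with the deposited log ratios, without the filter on dim probes and with the replicate block, and that of Pck2 with median centring and without background subtraction. The causes were not tested.

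No member had passed the test in a comparison where its value changed sign. Most of these values lay near 0 under the main processing. The new values reached 0.30, for Pgam1 after CAT-SKL+ADDL with median centring. With median centring the log2 values were, after CAT-SKL, Hk2 -0.037, Gpi 0.081, Pfkp 0.14, Tpi1 0.062, Slc2a1 0.026, Slc16a1 0.044, Ddit4 0.11 and Ndrg1 0.056. After ADDL they were Hk2 0.0085, Pgk1 0.013, Pgam1 0.022, Pkm -0.00033 and Vegfa -0.016. After CAT-SKL+ADDL they were Gpi 0.13, Pfkp 0.12, Aldoa 0.24, Tpi1 0.060, Gapdh 0.26, Pgk1 0.27, Pgam1 0.30, Eno1 0.23, Pfkfb3 -0.017, Slc2a1 0.0088, Slc16a1 0.036 and Ddit4 0.081. After ADDL+CAT-SKL they were Gpi 0.066, Pfkp 0.017, Aldoa 0.098, Pfkfb3 -0.023 and Ddit4 0.049, and Hk1 was 0.026 in CAT-SKL+ADDL minus ADDL. Without background subtraction Aldoa was 0.00015 after CAT-SKL+ADDL. With the deposited log ratios Hk2 was -0.0025 and Pgk1 -0.024 after CAT-SKL, Hk2 0.012, Pkm -0.0097 and Vegfa -0.027 after ADDL, Gapdh 0.033, Pgk1 0.0055 and Pkm -0.064 after CAT-SKL+ADDL, and Pfkp 0.074, Eno1 -0.0084, Ldhb -0.042, Pfkfb3 -0.019, Slc16a3 -0.0048 and P4ha1 -0.090 after ADDL+CAT-SKL. With the mean of a gene's probes Pkm was -0.039, Vegfa -0.058 and Ddit4 -0.051 after ADDL, Pkm -0.029 after CAT-SKL+ADDL, and Gapdh -0.049 and Vegfa -0.054 after ADDL+CAT-SKL.

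Leaving out 1 array gave, after CAT-SKL, Hk2 -0.0062 to 0.014, Pfkp -0.11 to 0.015, Gapdh -0.026 to 0.088, Pgk1 -0.029 to 0.037, Slc2a3 -0.23 to 0.050, Slc16a1 -0.069 to 0.0077 and Ddit4 -0.11 to 0.046. After ADDL it gave Hk2 -0.023 to 0.014, Pfkp -0.030 to 0.063, Aldoa -0.14 to 0.050, Gapdh -0.19 to 0.0083, Pgk1 -0.042 to 0.014, Pgam1 -0.047 to 0.00060, Eno1 -0.029 to 0.096, Pkm -0.18 to 0.24, Pdk3 -0.20 to 0.032, Vegfa -0.0010 to 0.029, Ddit4 -0.071 to 0.22, Egln3 -0.14 to 0.030, Ndrg1 -0.15 to 0.080 and Hif1a -0.31 to 0.0089. After CAT-SKL+ADDL it gave Pfkl -0.028 to 0.092, Aldoa -0.017 to 0.010, Gapdh -0.068 to 0.0095, Pgam1 -0.081 to 0.027, Pkm -0.0018 to 0.024 and Pfkfb3 -0.032 to 0.11. After ADDL+CAT-SKL it gave Pfkm -0.0062 to 0.19, Pfkp -0.19 to 0.0055, Aldoa -0.091 to 0.079, Gapdh -0.0033 to 0.074, Pgk1 -0.037 to 0.070, Ldhb -0.032 to 0.042, Pfkfb3 -0.11 to 0.14, Slc2a3 -0.25 to 0.023, Slc16a3 -0.035 to 0.11 and Ddit4 -0.080 to 0.030.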
